A study of Mus musculus with 6 samples.

Results

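Immediate early genes are described here in neurons of the preBötzinger complex (preBötC), the region of the ventral medulla that generates the inspiratory breathing rhythm. The 10 members were chosen by name, as textbook early response genes, from the 49568 gene names measured. They are Fos, Fosb, Jun, Junb, Egr1, Nr4a1, Nr4a3, Ier2, Npas4 and Arc. Each of 6 sequenced samples pooled 15 neurons from a single mouse at postnatal day 2, a different mouse for every sample. The 3 Dbx1 samples held neurons with tdTomato fluorescence, and the 3 non-Dbx1 samples held neuronal somata without it. All mice were Dbx1CreERT2; Rosa26tdTomato offspring, of either sex, whose mothers had received tamoxifen during gestation. In these mice tdTomato marks descent from progenitors that expressed Dbx1 when tamoxifen was present, not Dbx1 expression at collection. The non-Dbx1 group is therefore defined by the absence of the reporter and can hold many kinds of neuron. Every neuron was drawn into a glass pipette from a living brainstem slice, so all 6 samples share the slicing and the aspiration. No sample without that handling was analysed here, and the levels below have no baseline to be set against.

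Immediate early genes are transcribed within minutes of a stimulus, without new protein synthesis. In neurons, calcium entry and growth factor signalling reach them through kinases that act on transcription factors already in the nucleus, mainly CREB at the cAMP response element and SRF with its partners at the serum response element. Many of their products are themselves transcription factors that switch on a later set of genes, and others, such as Arc, act at the synapse. Their transcripts are short-lived, so their levels can change with the time since a stimulus. The neurons of a tube were collected singly until the pool was full. The part of such timing in the levels below was not tested. Fos is widely used to map recently active neurons.

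The unit is RPKM, the reads of a gene scaled by the length of its exons and by all reads that fell on genes of that sample. Such reads numbered 6464675 to 9432958 per sample, a total deduced from the size of the smallest step between deposited values. All 6 neuronal markers, among them Snap25 and Rbfox3, had reads, and their summed RPKM was 1044 to 1733 in the Dbx1 samples, against 1029 to 1404 among the non-Dbx1 samples. Some samples also carried transcripts that mark other cells. Summed red blood cell markers, the globins and Alas2, were 90.3 to 507 in the Dbx1 samples, against 733 to 14058 among the non-Dbx1 samples, highest in non-Dbx1 replicate 1. The 8 oligodendrocyte lineage markers summed to 20.1 to 73.6 and to 46.6 to 459, again highest in non-Dbx1 replicate 1. The 5 endothelial markers summed to 0.101 to 0.595 in the Dbx1 samples and to 0.0427 to 71.5 in the non-Dbx1 samples, with the highest value in non-Dbx1 replicate 2. Summed microglial markers were 0.202 to 29.2 and 14.6 to 44.4, with Tmem119 at 0 in every sample. Summed astrocyte markers were 24.5 to 37.0 and 32.9 to 44.9, and those of pericytes and smooth muscle 0.858 to 3.35 and 0.167 to 3.16. In such pools, fewer cells that express a gene and less RNA per cell cannot be told apart.

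CREB and SRF act on sequence near the start site of many early genes, so that sequence was read for the members. RefSeq start sites on GRCm38.p6 were available for 7 of the 10 members. The 250 bases before the start site are shown for Fos, which was at 0 in 1 sample, and for Nr4a1 and Jun, which had reads in all 6 samples. Capitals mark TGACG, the core of the cAMP response element, or CGTCA, the same letters on the other strand. The positions are chr12:85473640-85473889 (plus strand) for Fos, chr15:101266596-101266845 (plus strand) for Nr4a1 and chr4:95052223-95052472 (minus strand) for Jun. By GENCODE vM21 no exon lies in these windows. The Nr4a1 window is inside that gene, downstream of the start of its longest annotated span. The Jun window is inside the span of Junos, an antisense RNA gene on the other strand.
Fos: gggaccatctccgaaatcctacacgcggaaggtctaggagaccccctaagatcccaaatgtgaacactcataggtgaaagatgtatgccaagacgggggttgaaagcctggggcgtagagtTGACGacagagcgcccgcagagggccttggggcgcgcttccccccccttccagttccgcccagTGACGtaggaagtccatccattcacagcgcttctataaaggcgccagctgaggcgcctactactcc
Nr4a1: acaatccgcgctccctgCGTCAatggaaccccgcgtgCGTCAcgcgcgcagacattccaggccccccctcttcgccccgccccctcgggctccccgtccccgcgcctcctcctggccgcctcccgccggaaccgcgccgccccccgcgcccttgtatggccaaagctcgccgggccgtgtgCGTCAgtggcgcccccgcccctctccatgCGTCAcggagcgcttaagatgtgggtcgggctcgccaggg
Jun: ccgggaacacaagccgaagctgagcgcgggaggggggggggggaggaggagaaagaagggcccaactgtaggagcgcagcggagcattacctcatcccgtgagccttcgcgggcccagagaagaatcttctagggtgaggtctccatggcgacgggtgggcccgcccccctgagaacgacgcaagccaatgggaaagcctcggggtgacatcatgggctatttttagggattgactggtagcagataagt
The Fos sequence held 2 TGACG cores, the nearer one with its last base at -62 from the start site. Nr4a1 held 4, all on the minus strand, and the nearest ended at -36. Jun held none in this window. Near variants of the motifs were not sought, and the Jun sequence held TGACATCA. Of the 7 members with a sequence, 6 held TGACG on either strand, against 17.8% of the 32851 promoters of the same length. The full palindrome TGACGTCA, which contains TGACG, was in 0 of the 7 and in 1.55% of all promoters. The CArG box of the serum response element was in 0 of 7 and in 1.47% of all promoters, and the AP-1 site TGANTCA in 0 of 7 and in 6.75%. These matches describe letters in a window of 250 bases, not occupied sites. Bases farther from the start site were not searched, and Egr1, Arc and Ier2 had no sequence. A motif missing here is therefore not shown to be missing from the gene.

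Seen across the samples, the members did not form a common pattern. Junb, Jun and Nr4a1 had reads in all 6 samples, and the other 7 members were at 0 in at least 1 sample. Junb had only 1 read in non-Dbx1 replicate 1 (RPKM 0.0672, where 3 reads give 0.202). Non-Dbx1 replicate 2 was the only sample with reads for all 10 members, with 1 read each for Fosb and Arc. Dbx1 replicate 3 and non-Dbx1 replicate 3 had reads for 6 members each. No sample was highest or lowest throughout. Dbx1 replicate 1 had the highest RPKM of Fosb, Jun, Npas4 and Arc but was at 0 for Fos, Egr1 and Ier2. Averaged over the 10 members, log2(RPKM + 1) was 1.14, 1.86 and 1.66 in Dbx1 replicates 1 to 3 and 1.29, 2.02 and 1.34 in non-Dbx1 replicates 1 to 3. The means of the groups were 1.55 ± 0.371 and 1.55 ± 0.409 (SD, n = 3 each), a difference far within the spread of either.

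**Figure D1:**
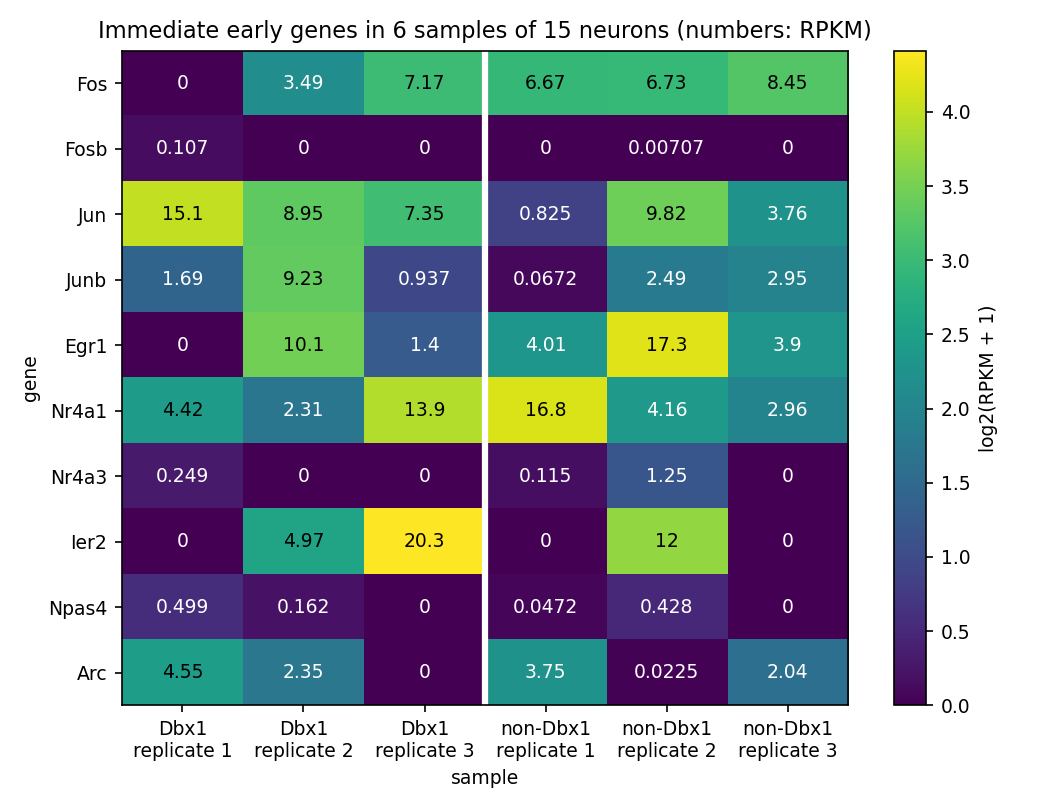
RPKM of the 10 immediate early genes (rows) in the 3 Dbx1 and 3 non-Dbx1 samples (columns), with colour showing log2(RPKM + 1) and the number in each tile the RPKM. Dark tiles are scattered over both groups, and Jun, Junb and Nr4a1 have no tile at 0.

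The Dbx1 and non-Dbx1 samples were compared by limma, a linear model fitted to log2(RPKM + 1) of every gene that had reads in 3 or more samples (17614 genes), and FDR values were adjusted by Benjamini-Hochberg over all of them. L2FC stands for the Dbx1 mean minus the non-Dbx1 mean on that log2 scale. It understates changes of genes near or below 1 RPKM. Of the 9 members tested, 0 passed FDR < 0.1 in either direction, where 0.00568% of all genes did. That share is 1 gene, so a count of 0 says little about the members. The study's own test of read counts (DESeq2) reported more genes at the same FDR threshold, among them Hif1a and Gata2. At an unadjusted p below 0.05 in limma the member count was also 0 of 9, against 5.2% of all genes (2.73% with Dbx1 higher and 2.48% with non-Dbx1 higher). A second tool, voom on the recovered reads, called 0 of the 13999 genes it tested. Its count of 0 among the 7 members with enough reads therefore says nothing about them. An unadjusted p below 0.05 in voom was reached by 0 of the 7 members and by 738 of the 13999 genes. The member FDR values in limma ran from 0.921 to 0.993. L2FC was above 0 for 5 members and below 0 for 4, with a median of 0.07 beside 0.0089 over all genes. The groups overlapped for every one of the 10 members, where 10.6% of all genes tested had groups that did not overlap. Exact two-sided permutation tests of single members gave p from 0.3 to 1.0, and 3 samples against 3 cannot go below 0.10.

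**Figure D2:**
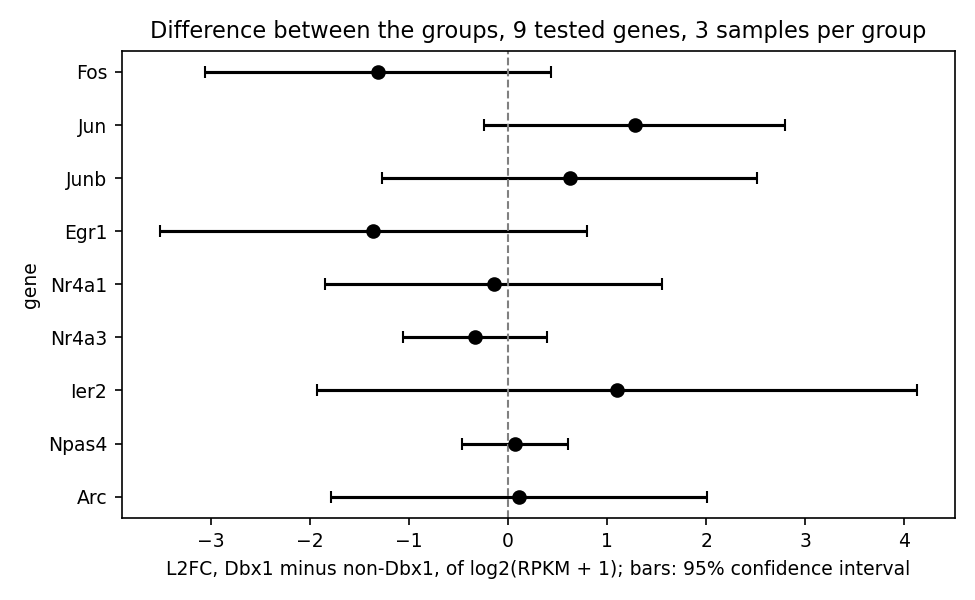
L2FC of the 9 tested members (points) with limma's 95% confidence interval (bars), 3 samples per group, values above 0 being higher in the Dbx1 samples. Every interval includes 0, from Npas4 (-0.46 to 0.61) to Ier2 (-1.93 to 4.13).

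The first 4 members encode subunits of AP-1, the leucine zipper dimer of a Fos protein with a Jun protein. Fos (ENSMUSG00000021250, chromosome 12, 85473890 to 85477273 on GRCm38) had RPKM of 0, 3.49 and 7.17 in Dbx1 replicates 1 to 3 and 6.67, 6.73 and 8.45 in non-Dbx1 replicates 1 to 3. The non-Dbx1 samples sat close together, at 7.28 ± 1.01 (SD, n = 3), and the Dbx1 samples spread from 0 to above the lowest of them. The 0 in Dbx1 replicate 1 allows an RPKM of up to 0.0909 (the value of 3 reads, counting error only), while the other samples had at least 109 to 331 reads. L2FC was -1.31 (SE 0.765, 95% CI -3.06 to 0.44, FDR = 0.934), and it was -0.45 without Dbx1 replicate 1, the sample at 0, and -3.45 with voom, a fit to the recovered reads. Fosb (ENSMUSG00000003545), a Fos relative with a long-lived splice product, was nearly absent, with 14 reads in Dbx1 replicate 1 (RPKM 0.107), 1 read in non-Dbx1 replicate 2 (RPKM 0.00707) and none elsewhere. It had reads in too few samples to be tested.

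Jun and Junb are the Jun partners, Junb being the weaker activator of the pair. Jun (ENSMUSG00000052684, chromosome 4, 95049034 to 95052222) had RPKM of 15.1, 8.95 and 7.35 in the Dbx1 samples, against 0.825, 9.82 and 3.76 among the non-Dbx1 samples. Only non-Dbx1 replicate 2 reached the Dbx1 range, and non-Dbx1 replicate 1 had just 17 reads where the other samples had 113 to 384. L2FC was 1.28 (SE 0.664, 95% CI -0.24 to 2.80), with the lowest p of the members in limma (0.0883, FDR = 0.921), and it was 0.62 without non-Dbx1 replicate 1. Junb (ENSMUSG00000052837, chromosome 8, 84974484 to 84978718) had RPKM of 1.69, 9.23 and 0.937 in the Dbx1 samples, against 0.0672, 2.49 and 2.95 among the non-Dbx1 samples. One Dbx1 sample, replicate 2, stood above all others, and the remaining values of both groups were interleaved. L2FC was 0.62 (SE 0.827, 95% CI -1.27 to 2.51, FDR = 0.960), and without Dbx1 replicate 2 it was -0.10. Jun and Junb were both lowest in non-Dbx1 replicate 1, the sample with the highest sums of red blood cell and oligodendrocyte markers, and the part of those transcripts in the result was not tested. Both genes overlap a gene on the other strand and reads were counted without strand. Junb overlaps the end of Prdx2, whose RPKM reached 110, and Jun overlaps the antisense RNA Junos, whose RPKM reached 0.728. The study counted reads that mapped uniquely to genes, so reads in a shared stretch may be missing from both genes. The size of this effect was not tested.

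Egr1, a zinc finger transcription factor, differed widely between samples of either group. Its RPKM was 0, 10.1 and 1.40 in the Dbx1 samples, against 4.01, 17.3 and 3.90 among the non-Dbx1 samples (ENSMUSG00000038418, chromosome 18). In each group replicate 2 was the high sample, with 571 and 1115 reads, while Dbx1 replicate 1 had none, which allows an RPKM up to 0.0502. L2FC was -1.36 (SE 0.942, 95% CI -3.52 to 0.79, FDR = 0.936). It was -0.57 without Dbx1 replicate 1, -0.73 without non-Dbx1 replicate 2, -2.31 without Dbx1 replicate 2 and -3.85 with voom. Fos and Egr1 thus shared their single 0, in Dbx1 replicate 1, but not their highest sample.

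Nr4a1 and Nr4a3 encode orphan nuclear receptors that bind DNA without a known natural ligand. Nr4a1 (ENSMUSG00000023034, chromosome 15, 101254269 to 101274795) had RPKM of 4.42, 2.31 and 13.9 in the Dbx1 samples, against 16.8, 4.16 and 2.96 among the non-Dbx1 samples. Each group held 1 high sample, and the 4 lower values of both groups lay between 2.31 and 4.42. L2FC was -0.15 (SE 0.744, 95% CI -1.85 to 1.55, FDR = 0.990), and it was 0.51 without non-Dbx1 replicate 1, the high sample of its group. That sample was lowest for Jun and Junb, so members of the same class of genes were at opposite ends in 1 library. Nr4a3 (ENSMUSG00000028341, chromosome 4, 48045153 to 48086447) had RPKM of 0.249, 0 and 0 in the Dbx1 samples, against 0.115, 1.25 and 0 among the non-Dbx1 samples. Its level rests mainly on the 130 reads or more of non-Dbx1 replicate 2, beside at least 24 and 9 reads in the other 2 samples that had any. L2FC was -0.34 (SE 0.319, 95% CI -1.07 to 0.39, FDR = 0.951), and without that sample it was 0.03. Non-Dbx1 replicate 2 was highest for both Egr1 and Nr4a3 and also had the highest sum of endothelial markers. The part of endothelial RNA in these values was not tested.

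Ier2, a nuclear protein of the early growth response, came closest to an on or off pattern. Its RPKM was 0, 4.97 and 20.3 in the Dbx1 samples, against 0, 11.98 and 0 among the non-Dbx1 samples (ENSMUSG00000053560, chromosome 8, 84661331 to 84662852). The samples with reads had 57, 215 and 156 of them, and in each sample at 0 the limit of 3 reads allows an RPKM of at most 0.305. L2FC was 1.10 with the widest interval of the members (SE 1.33, 95% CI -1.93 to 4.13, FDR = 0.960). It was 0.057 without Dbx1 replicate 3, 0.48 without non-Dbx1 replicate 1 or 3, 2.26 without Dbx1 replicate 1, 2.33 without non-Dbx1 replicate 2 and 2.39 with voom. The samples at 0 were Dbx1 replicate 1 and non-Dbx1 replicates 1 and 3.

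Npas4 and Arc are the members most closely tied to neuronal activity. Npas4 encodes a bHLH-PAS transcription factor of neurons that responds selectively to calcium, and Arc a protein of dendrites that acts in the removal of glutamate receptors from synapses. Npas4 (ENSMUSG00000045903, chromosome 19, 4984355 to 4990316) had RPKM of 0.499, 0.162 and 0 in the Dbx1 samples, against 0.0472, 0.428 and 0 among the non-Dbx1 samples. It was below 1 RPKM throughout, with at least 13 reads in its highest sample, and replicate 3 of both groups had none. L2FC was 0.07 (SE 0.234, 95% CI -0.46 to 0.61, FDR = 0.985). Arc (ENSMUSG00000022602, chromosome 15, 74669083 to 74672570) had RPKM of 4.55, 2.35 and 0 in the Dbx1 samples, against 3.75, 0.0225 and 2.04 among the non-Dbx1 samples. Each group held 1 sample at or near 0, Dbx1 replicate 3 with no read and non-Dbx1 replicate 2 with 1 read, and the other 4 samples had 92 to 188 reads. L2FC was 0.11 (SE 0.832, 95% CI -1.79 to 2.01, FDR = 0.993), and it was -0.52 without non-Dbx1 replicate 2. Arc was therefore nearly absent from the sample in which Egr1 and Nr4a3 were highest.

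The spread between samples of a group was set beside that of genes of like level. The within-group SD of log2(RPKM + 1) lay above limma's trend at the same mean level for 9 of 9 members, as it did for 52.4% of all genes tested. Npas4 lay only just above it, with an SD of 0.287 against a trend of 0.286. The ratio of the SD to the trend had a median of 1.54 in the members and 1.03 in all genes. It was above 1.5 in 5 members and in 23.0% of all genes, and only 2.03% of all genes had a ratio above that of Ier2. Values of 0 were counted in the same way. Mean RPKM was between 5 and 10 for 2651 genes, of which 223 (8.41%) were at 0 in at least 1 sample. The 5 members in that range were Jun, Nr4a1, Ier2, Egr1 and Fos, and Ier2, Egr1 and Fos were at 0 in at least 1 sample. Ier2 was at 0 in 3 samples, as were, in 3 or more samples, 50 of the 2651 genes including it (1.89%). These shares are descriptions, with no test of the list.

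**Figure D3:**
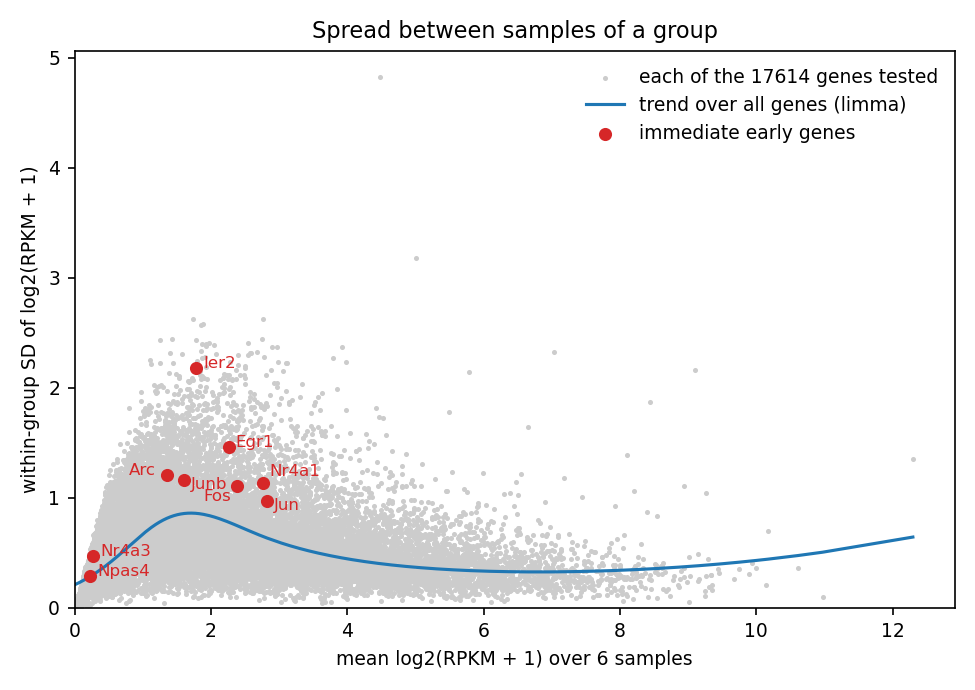
Within-group SD of log2(RPKM + 1) against the mean over the 6 samples, for each of the 17614 genes tested (grey), for the 9 tested members (red) and for limma's trend (blue line). All 9 members lie above the line, Npas4 only just (0.287 against 0.286), and Ier2 is the farthest above it.

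By mean RPKM over the 6 samples the members ran from Jun to Fosb. Jun (7.64), Nr4a1 (7.43), Ier2 (6.21), Egr1 (6.12) and Fos (5.42) came first, then Junb (2.90) and Arc (2.12). Nr4a3 (0.270), Npas4 (0.189) and Fosb (0.0189) were below the median of 1.09 over the 27067 genes with reads in any sample. No neighbours in this order differed beyond their spread. Exact two-sided sign-change tests of the within-sample differences in log2(RPKM + 1), over 9 neighbouring pairs and 6 samples, gave p from 0.125 to 0.938 and adjusted p from 0.562 to 0.938, and the smallest p such a test can give is 0.0312. The order also depended on the exon length. The exon lengths behind the RPKM were inferred. Of 12404 genes whose merged exon length differs from the sum of all distinct exons, overlapping ones counted each, the sum gave whole reads for 2689 and the merged length for 22. The sum also gave whole reads for 6 of the 10 members, and it makes the length of Egr1 1.68 times, of Arc 1.70 times and of Fosb 2.65 times the merged one and lowers their RPKM by as much. For Fos, Nr4a1, Nr4a3 and Npas4 only the shortest length that gives whole reads is known. With merged lengths, an alternative chosen after seeing the data, the mean RPKM of Egr1 (10.3) was above that of Jun (7.64). Fos (at least 9.56) and Nr4a1 (at least 5.24) have no fixed place in that order, because only their shortest possible lengths are known.

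The other genes of the response were taken as lists, and 0 genes of any list passed FDR < 0.1 in limma, where 1 of 17614 genes did. Among 24 other early genes, 21 had reads and 18 were tested. L2FC was above 0 for 4 and below 0 for 14, with a median of -0.41. Over all genes tested it was above 0 for 8953 and below 0 for 8661, with a median of 0.0089. Beside 5.2% of all genes tested, 1 gene of the list had an unadjusted p below 0.05 in limma. That gene was Klf2, a zinc finger factor prominent in endothelium, with RPKM of 0.0681, 0 and 0 in the Dbx1 samples, against 0.419, 7.40 and 2.24 among the non-Dbx1 samples (L2FC -1.73, FDR = 0.912). Its highest value was again in non-Dbx1 replicate 2, the sample with the highest endothelial markers, and their part was not tested. Jund, the constitutive Jun family member, was steady beside the inducible ones, with RPKM between 19.8 and 31.0 in all 6 samples (L2FC -0.18, FDR = 0.964). Ier3 ranged from 2.45 to 15.5 RPKM, and Dusp1, a phosphatase that switches MAP kinases off, was highest in non-Dbx1 replicate 1 at 11.6 RPKM, as Nr4a1 was. Klf4 (L2FC 0.64) and Tiparp (L2FC 0.70) had the highest L2FC of the list, with FDR of 0.936 and 0.959, but Klf4 was at 0.16 without Dbx1 replicate 3, and Tiparp was at 0.18 without Dbx1 replicate 1 and at 3.22 with voom. Egr3, Atf3 and Cyr61 were at 0 in all 6 samples.

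Genes of the later response, many of them secreted or synaptic proteins, included the lowest FDR values of the 4 lists. All 14 had reads and 12 were tested, with L2FC above 0 for 8 and below 0 for 4 and a median of 0.31. An unadjusted p below 0.05 in limma was reached by 5 of the 12, beside 5.2% of all genes tested. The list was chosen with earlier results of these data known, so this count is not independent support. Nrn1, a membrane-anchored neurite growth factor, had RPKM of 158, 339 and 77.9 in the Dbx1 samples, against 42.7, 70.1 and 16.6 among the non-Dbx1 samples. Its groups did not overlap, and its L2FC was 2.09 (SE 0.615, FDR = 0.804). Nptx2, a secreted pentraxin of excitatory synapses, had RPKM of 53.5, 187 and 20.5 against 25.9, 7.51 and 8.53 (L2FC 2.22, FDR = 0.909). Scg2, a granin of secretory vesicles, had 110, 104 and 87.4 against 114, 316 and 210, with no overlap and an L2FC of -0.97 (FDR = 0.912). Pcsk1, a prohormone convertase, had 0, 0.616 and 0.491 against 0.642, 2.37 and 6.68, an L2FC of -1.38 (FDR = 0.912). Bdnf, the neurotrophin, was at 18.2 RPKM in non-Dbx1 replicate 2 and between 0.0145 and 2.29 in the others, so its highest sample was that of Egr1 and Nr4a3. Of the 12 tested, 3 were without overlap with Dbx1 higher and 2 with non-Dbx1 higher, beside 5.35% and 5.24% of all genes.

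The regulators upstream of the early genes are kinases, CREB and SRF with their partners. All 19 were tested, with L2FC above 0 for 9 and below 0 for 10 and a median of -0.09. An unadjusted p below 0.05 in limma was reached by 0 of the 19, beside 5.2% of all genes tested. Mapk3, a MAP kinase, had a mean RPKM of 36.3 and lay between 30.9 and 42.3 in all 6 samples (L2FC -0.093, FDR = 0.980). Camk4, the calcium-dependent kinase that phosphorylates CREB, had 14.5, 11.7 and 15.8 in the Dbx1 samples, against 9.91, 5.28 and 8.22 among the non-Dbx1 samples, without overlap (L2FC 0.80, SE 0.351, FDR = 0.912). Rps6ka5, a kinase that acts on CREB and histone H3, had the highest L2FC of the list (1.02, FDR = 0.940) and was at 0 in non-Dbx1 replicates 1 and 3. Crtc1, a coactivator of CREB, and Elk4, a partner of SRF, had the lowest L2FC (-0.46 and -0.57, FDR = 0.960 and 0.951). Genes of cell stress, which can answer tissue handling, were measured in all 11 cases, with L2FC above 0 for 6 and below 0 for 5, a median of 0.07, and 0 genes with an unadjusted p below 0.05. The endoplasmic reticulum chaperone Hspa5 (35.5 to 74.2 RPKM) and the translation stress factor Atf4 (54.3 to 133 RPKM) were the highest of these. The heat shock gene Hspa1b had RPKM of 3.68, 0.948 and 3.13 against 0.0552, 0.459 and 1.66 (L2FC 1.07, FDR = 0.924). The study counted reads that mapped uniquely to genes, so reads common to Hspa1b and its near-identical copy Hspa1a may be missing from both. Hspb1 had an L2FC of 0.37 (FDR = 0.936) and Hsph1 of -0.30 (FDR = 0.959).

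**Figure D4:**
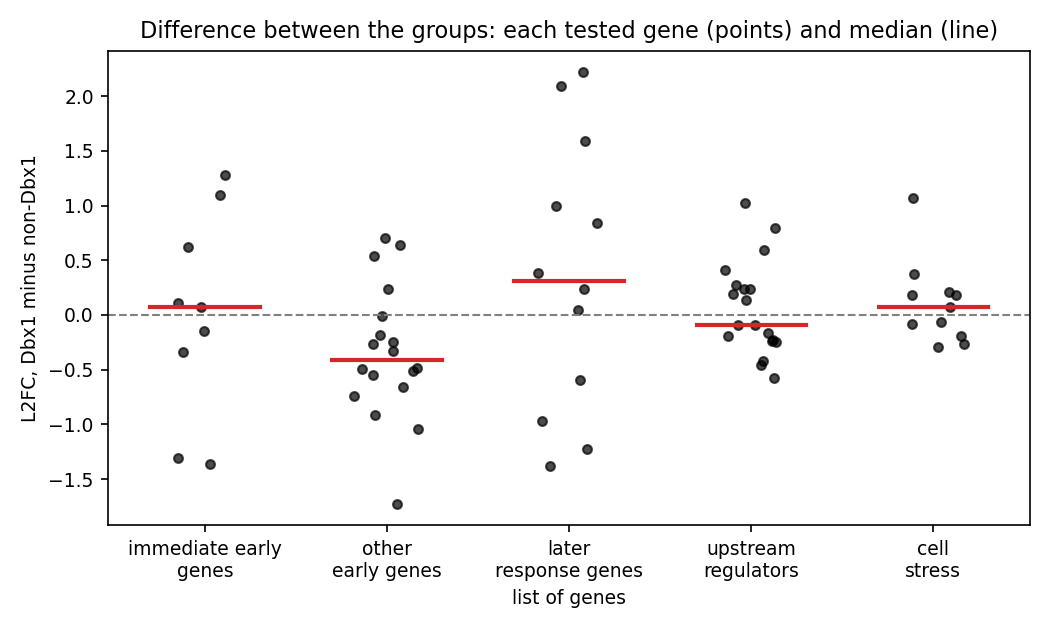
L2FC of each tested gene (points) and the median (red line) for the 9 tested members and the 4 lists, with values above 0 higher in the Dbx1 samples. The medians are 0.07, -0.41, 0.31, -0.09 and 0.07 from left to right, and no gene passed FDR < 0.1.

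The genes most like the members were sought by Pearson's r over the 6 samples with the mean log2(RPKM + 1) of the 10 members, as a description. The 5 highest were Slc36a1 (0.997), Fer (0.995), Lima1 (0.993), Map3k3 (0.993) and Jag2 (0.989). Of the 17605 genes compared, 142 had r above 0.9 and 95 below -0.9. Each of the 5 named genes was highest in non-Dbx1 replicate 2 and next highest in Dbx1 replicate 2, the order of the members' mean. Slc36a1, a lysosomal amino acid transporter, had RPKM of 1.25, 3.67 and 2.64 in the Dbx1 samples, against 1.48, 4.67 and 1.75 among the non-Dbx1 samples.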

How the data were processed

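RNA was measured in 6 samples, 3 Dbx1 and 3 non-Dbx1, from 6 mice. Per the labels and the methods of the study, the authors made complementary DNA from the pooled neurons, aligned reads to mm10 with TopHat2 and counted them on gene names with HTSeq without regard to strand. The authors deposited RPKM, computed from exon lengths and the reads assigned to genes in each sample, without scaling between samples. The annotation release is not given in the sources used here, and the read counts were not analysed here. Positions came from GENCODE vM21 on GRCm38, which matched 95.3% of the names.

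The members, the lists and the cell type markers were chosen with earlier results of these data known, so no count over them is independent support. The members are all named. From each list the named genes are those with FDR < 0.1, the 2 with the highest and the 2 with the lowest L2FC and the 2 with the highest mean RPKM. One gene that this rule picks is not reported here. Genes at 0 in all samples were named after their values were seen.

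Reads per sample and per gene were recovered from the steps between RPKM values, for 17613 of 17614 genes. The sum of distinct exons gave the length for 39.6% of these. For the others the shortest length that gives whole reads was taken, so their reads are the fewest possible. The voom fit used these reads. For Fos, Nr4a1, Nr4a3 and Npas4 no annotated length gave whole reads, so the fewest possible reads are printed, and the real number may be a multiple. Floors are 3 reads and, like all intervals on reads, cover counting error only, since amplified reads are not independent molecules.

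The authors tested counts with DESeq2. Because the deposited values are RPKM, log2(RPKM + 1) was tested with limma 3.58.1 under R 4.3.3. The test (lmFit followed by eBayes, trend allowed) was two-sided, at FDR < 0.1. The fit was also run on simulated reads in which only genes with many reads were changed. That run does not cover genes at low level or at 0 in some samples. Python 3.11.15 (scipy 1.17.1, pandas 2.3.3, numpy 2.4.6) gave the other values and matplotlib 3.10.9 the plots. The alternatives were a pseudocount of 0.1, all genes with reads, RPKM of at least 1 in 3 samples, size factors, quantile normalization, no trend, the replicate number as a block, voom on recovered reads (at least 10 reads in 3 samples), each sample left out in turn, the log2 ratio of group mean RPKM for the members, each group alone for the order and, added after seeing the data, merged exon lengths. Motifs were sought on both strands. Proteins were not used here.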

Additional observations from a re-analysis of the deposited data

How the results depend on the processing

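No member passed FDR < 0.1 under any of the 14 alternatives, and the lowest member FDR among them was 0.784. Of 131 member values, 121 kept their direction and 10 did not, 9 of these when a sample was left out. The leave-out L2FC ran from -1.96 to -0.45 for Fos, 0.62 to 1.90 for Jun, -2.31 to -0.57 for Egr1, 0.057 to 2.33 for Ier2, -0.10 to 1.10 for Junb, -0.52 to 0.81 for Arc, -0.085 to 0.23 for Npas4, -0.75 to 0.51 for Nr4a1 and -0.56 to 0.029 for Nr4a3, and with voom Arc was at -0.052. As the log2 ratio of group mean RPKM, Nr4a3 was at -2.46, Junb at 1.11 and Npas4 at 0.48. An unadjusted p below 0.05 was reached by 1 member in each of 3 leave-outs, Egr1 without Dbx1 replicate 2, Fos without Dbx1 replicate 3 and Jun without non-Dbx1 replicate 2, with FDR of 0.9996, 0.887 and 0.950. Of the 21 genes named from the lists, 0 passed FDR < 0.1 under any alternative, and of their 287 values 2 turned, Hspa5 without non-Dbx1 replicate 1 and Atf4 without non-Dbx1 replicate 2. The leave-out L2FC ran from -0.078 to 0.36 for Hspa5 and -0.49 to 0.044 for Atf4, and a leave-out moved the L2FC of 18 of the 21 by over 1.5 times. The cause was not tested. Only 1 gene of the 17614 passed the threshold in the reported fit. The count was 0 with a pseudocount of 0.1, without the filter and with voom on recovered reads, 3 without the trend, and 0 to 1 with a sample left out, the 1 being lower in the Dbx1 samples without Dbx1 replicate 1 and higher in them without non-Dbx1 replicate 2. Unadjusted p was below 0.05 for 684 to 1046 genes under the alternatives. In the order of the 10 members by level, 3 kept their rank in the Dbx1 samples alone, 4 in the non-Dbx1 samples alone and 3 with merged exon lengths, taking the shortest possible length for 4 members.

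The replicate numbers do not pair the samples, which came from 6 different animals. Deviations from the group means correlated at -0.045 on average between samples of the same number and at 0.022 between others. With the replicate number as a block, 0 genes passed and the lowest member FDR was 0.980. Pools of 15 neurons and 3 samples per group limit what can be seen. The intervals of Fos, Egr1, Jun, Junb, Arc and Ier2 include an L2FC beyond 2 in 1 direction or both, and Fosb had reads in only 2 samples.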
